A study of Mus musculus with 5 samples.

Results

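Solute carriers are membrane proteins that move amino acids, sugars, ions, metals, nucleosides and metabolites across the plasma membrane and the membranes of organelles, and they are named by a carrier number for the family and a letter and number for the member. The members described here are the 216 gene symbols of that naming form, of 12588 gene symbols or identifiers in the deposited table, left after 7 symbols (Slc1a2, Slc1a3, Slc2a1, Slc16a3, Slc3a2, Slc7a5 and Slc7a11) were set aside by rule. They carry 42 carrier numbers and 353 of the 22227 listed transcripts, and they were chosen by name, with earlier results of these data known. By name, 4 of them (Slc9a3r1, Slc9a3r2, Slc7a6os and Slc4a1ap) are regulators or neighbouring genes and not carriers.

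The data are RNA-Seq libraries of neural stem/progenitor cell (NSPC) cultures from C57BL/6J mice, 2 labelled WT (replicate numbers 1 and 4, littermates of the mutants) and 3 labelled p75NTR-/- (numbers 1, 2 and 4), a genotype that by its label stands for mice constitutively deficient for the p75 neurotrophin receptor. All cultures were kept as proliferating cells with FGF-2 at 20 ng/ml and EGF at 20 ng/ml and received no treatment. The labels give the cells as E12.5, the study's methods speak of adult subventricular zone cells, and the table does not decide between them. Each library started from 500 ng RNA and a stranded poly(A) kit, and no source says how many animals went into a culture.

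The recovered counts per library ran from 11688211 to 14452397, so that 3 counts, taken as the floor of detection, stood for 2.94 to 3.60 normalized counts. Ngfr, the gene of the p75 receptor, went against the labels: it was at 0.98 and 2.08 normalized counts in the libraries labelled WT and at 9.89, 141 and 251 in those labelled p75NTR-/- (numbers 1, 2 and 4). Which exons the mutant allele keeps is not given in the sources used here, so the groups are called by their labels and every direction below rests on them. All 10 progenitor markers examined were listed (among them Nes, Sox2, Fabp7 and Egfr), none of 5 microglial or 3 erythroid markers was, and 3 of 6 neuronal markers were. All 5 astrocyte markers were listed, and their summed level was 28209 to 31531 normalized counts in the libraries labelled WT and 18733 to 31742 in those labelled p75NTR-/-, lowest in numbers 1 and 2. In bulk cultures, fewer cells of a type and less RNA per cell cannot be told apart.

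In neural tissue, solute carriers take up released GABA, glycine and glutamate, pass glutamine and lactate between cells, set intracellular chloride, pH and calcium, and carry nucleotides and substrates in and out of mitochondria. Cells of the astroglial lineage, to which adult neural stem cells belong, are known for the GABA carrier Slc6a11, the glycine carrier Slc6a9, the glutamine carrier Slc38a3, the bicarbonate carrier Slc4a4 and the peptide carrier Slc15a2. Many carriers work as exchangers or as sodium-coupled importers, so their direction of transport follows the gradients and not the transcript level.

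Levels between genes were compared on the TPM scale, which is per transcript length, summed over the listed transcripts of a gene. The mean over the 5 libraries ran from 0.114 to 1410 TPM. It reached 10 TPM for 106 members and 100 TPM for 12, and it stayed under 1 TPM for 24. The 216 genes together held 0.778% to 0.823% of the listed TPM of a library, and the 10 highest held 52.8% of the members' total.

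Mitochondrial carriers of the Slc25 family led the list. Slc25a5, an ADP/ATP carrier, was the highest, at 1410 TPM ± 157 (SD, n = 5). Slc25a4, another ADP/ATP carrier, followed at 925 TPM ± 38.7 (SD, n = 5), and the phosphate carrier Slc25a3 stood at 482 TPM ± 45.0 (SD, n = 5). These neighbours in the order were apart in every library, since the lowest Slc25a5 value was 1235 TPM and the highest Slc25a4 value 970 TPM. Slc25a39, known for glutathione import into mitochondria, had 251 TPM ± 38.2 (SD, n = 5), and Slc25a18, a mitochondrial glutamate carrier, 145 TPM ± 15.9 (SD, n = 5).

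Outside that family, the GABA carrier Slc6a11 stood at 220 TPM ± 56.3 (SD, n = 5). Below it came Slc22a17, a receptor for lipocalin-2, at 204 TPM ± 47.3 (SD, n = 5), Slc35a4 at 160 TPM ± 22.0 (SD, n = 5) and the glutamine carrier Slc38a3 at 133 TPM ± 28.7 (SD, n = 5). The zinc carrier Slc39a12 stood at 130 TPM ± 40.9 (SD, n = 5) and the heme carrier Slc48a1 at 109 TPM ± 15.0 (SD, n = 5). From Slc25a39 down to Slc48a1, the ranges of neighbours in the order, among the genes given here, overlapped.

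**Figure D1:**
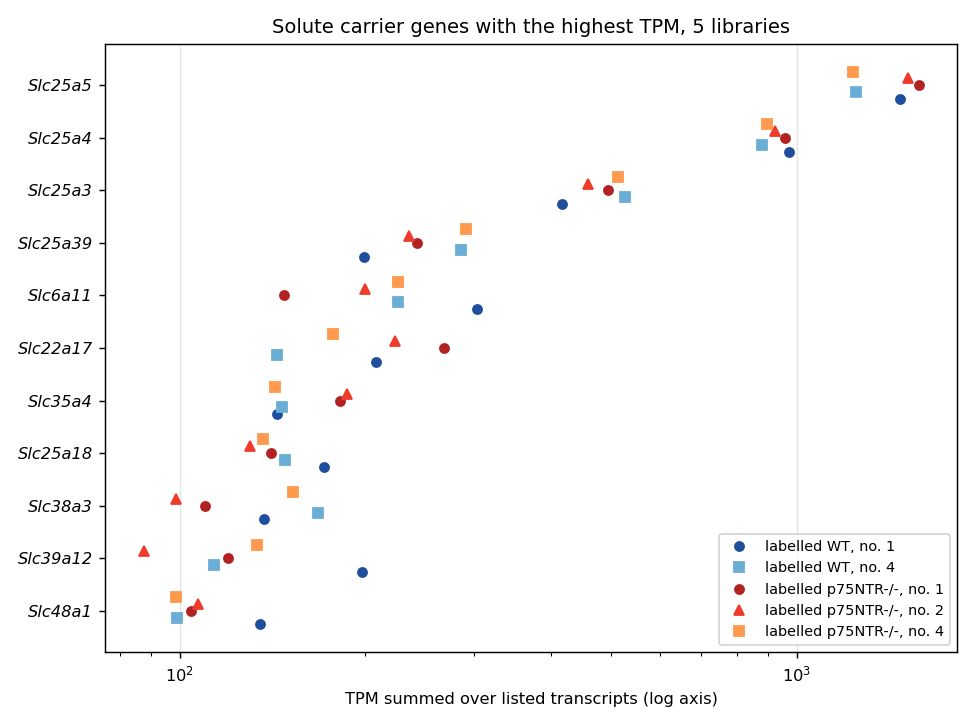
TPM of 11 of the 12 solute carrier genes with the highest mean, one row per gene and one point per library, on a log axis. Slc25a5, Slc25a4 and Slc25a3 stand apart from the rest and from each other, and from Slc25a39 down to Slc48a1 the points of neighbouring genes overlap.

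In the other classes the leading genes were lower. Among hexose carriers, Slc2a3, the high-affinity glucose carrier GLUT3, had a mean of 70.9 TPM with an SD as large as 65.2, and Slc50a1 had 41.0 TPM ± 7.68 (SD, n = 5). The sodium bicarbonate cotransporter Slc4a4 stood at 68.2 TPM ± 27.6 (SD, n = 5), and the anion exchanger Slc26a6 at 40.2 TPM ± 5.33 (SD, n = 5). Slc27a1, a fatty acid transport protein, had 56.2 TPM ± 10.7 (SD, n = 5), the phosphate carrier Slc20a1 54.7 TPM ± 24.5 (SD, n = 5) and the peptide carrier Slc15a2 50.5 TPM ± 25.3 (SD, n = 5). Slc29a1, an equilibrative nucleoside carrier, reached 44.4 TPM ± 22.1 (SD, n = 5), Slc12a9 42.4 TPM ± 8.27 (SD, n = 5) and the lactate carrier Slc16a1 39.7 TPM ± 14.2 (SD, n = 5). The amino acid carrier Slc38a1 stood at 72.8 TPM ± 42.0 (SD, n = 5), Slc39a7, a zinc carrier of the endoplasmic reticulum, at 85.7 TPM ± 8.49 (SD, n = 5), and Slc35f6 at 90.5 TPM ± 9.98 (SD, n = 5). The sodium-proton exchanger Slc9a7 and the sodium-calcium exchanger Slc24a3 led their classes with 17.5 TPM ± 2.92 and 11.2 TPM ± 2.87 (SD, n = 5).

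The comparison of the labels asks whether carrier transcripts differed between cultures labelled as lacking and as having the receptor. Normalized counts were summed per gene and fitted with limma on log2(value + 1) over all 12588 symbols, and a call needed a mean of at least 50, a fold of at least 1.5 and an adjusted p under 0.05. None of the 216 members was called, and 1 of all 12588 symbols was (0.00794%). The lowest adjusted p of any member was 0.934 in limma with Benjamini-Hochberg adjustment over all symbols. At an unadjusted p under 0.05 there were 7 members, 1 higher and 6 lower in the libraries labelled p75NTR-/-, beside 2.08% of all symbols. Of the 12588 symbols, 109 were higher and 153 lower at that p. Only 3 of the 7 members (Slc15a2, Slc25a42 and Slc38a1) had a mean of at least 50, and all 3 were lower. The others (Slc22a15, Slc35g2, Slc37a1 and Slc4a11) had means from 6.02 to 20.4 normalized counts, and Slc22a15 was the higher one. No member was called when single libraries labelled p75NTR-/- were left out. Without either library labelled WT only 1 is left with that label, so no count is given. With 2 against 3 libraries an exact permutation test of one gene cannot give a p below 0.1. The study's legend speaks of independent preparations, and the number of replicates it gives differs from the 2 and 3 libraries here. The p-values measure the spread between these libraries only.

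A mean of at least 50 normalized counts was reached by 176 members, and the other 40 had means from 4.66 to 49.0. Over the 176, the median label difference was -0.03 on the log2 scale, beside 0.02 over the 10786 symbols with that mean. By sign alone 77 members (43.8%) were higher and 99 (56.2%) lower in the libraries labelled p75NTR-/-, where 52.6% and 47.4% of all symbols were. A fold of 1.5 on the log2(value + 1) scale was reached upward by 8 members (4.55%), where 3.85% of all symbols reached it. Downward it was reached by 13 members (7.39%), where 4.46% of all symbols reached it. All 3 libraries labelled p75NTR-/- lay above both labelled WT for 7 members, where 7.76% of all symbols did so, and below them for 16, where 6.96% did. The members' shares were 3.98% and 9.09%.

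**Figure D2:**
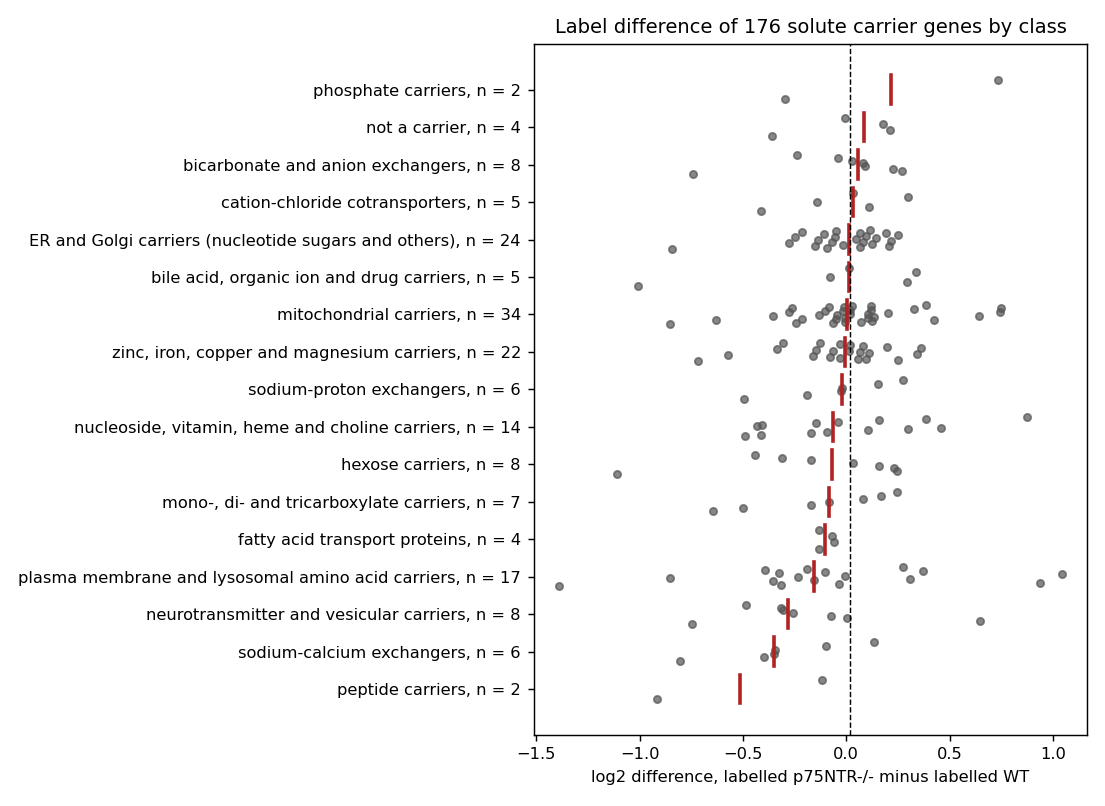
Label difference on the log2 scale (labelled p75NTR-/- minus labelled WT) of the 176 solute carrier genes with a mean of at least 50 normalized counts, one point per gene, by class. Red bars mark class medians and the dashed line the median of all 10786 symbols; class medians lie between -0.52 and 0.22 and the points of every class with more than 2 genes, except the fatty acid transport proteins, lie on both sides of 0.

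By class, the 34 mitochondrial carriers were split evenly, 17 higher and 17 lower by sign, with a median of 0.01. The 24 carriers of nucleotide sugars, sugar phosphates and acetyl-CoA in the endoplasmic reticulum and Golgi were split 12 and 12, with a median of 0.01. Of 22 zinc, iron, copper and magnesium carriers, 11 were higher and 11 lower, with a median of -0.01. Of 17 amino acid carriers of the plasma membrane and lysosome, 5 were higher and 12 lower (median -0.16), and of 8 neurotransmitter and vesicular carriers 2 were higher and 6 lower (median -0.28). Of 6 sodium-calcium exchangers, 1 was higher and 5 lower (median -0.35). Over all symbols with a mean of at least 50, 52.6% were higher and 47.4% lower by sign. No class was tested, since its genes share the same 5 libraries.

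The genes without overlap that had the largest differences are given in every library, with the libraries labelled WT as numbers 1 and 4 and those labelled p75NTR-/- as numbers 1, 2 and 4. Slc38a1, a sodium-coupled carrier of glutamine and other neutral amino acids (GRCm38 chr15:96571418-96642913, minus strand), was at 1733 and 1304 normalized counts with the WT label and at 424, 437 and 1012 with the p75NTR-/- label. Every library labelled p75NTR-/- was lower, and number 4 stood much nearer to the WT label than numbers 1 and 2 did. The difference was -1.39 on the log2 scale (SE 0.45, 95% confidence interval -2.55 to -0.24, limma adjusted p 0.934). Slc15a2, the proton-coupled peptide carrier PEPT2 (chr16:36750177-36784962, minus strand), was at 2033 and 1032 normalized counts with the WT label and at 735, 656 and 936 with the p75NTR-/- label. Number 1 labelled WT stood far above the rest, and the other four libraries lay close together without overlap of the labels. Its difference was -0.92 (SE 0.35, 95% confidence interval -1.82 to -0.02, limma adjusted p 0.934), and it was -0.43 without WT number 1 and -1.41 without WT number 4.

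Slc25a42, which brings coenzyme A into mitochondria (chr8:70184340-70212305, minus strand), was at 80.5 and 59.3 normalized counts with the WT label and at 33.6, 43.2 and 37.0 with the p75NTR-/- label. Here the label difference was -1.23 within number 1 and -0.67 within number 4. Of the 176 members Slc25a42 alone reached a fold of 1.5 in the same direction within both numbers. The share of all symbols that did so was not made, so this count has no comparison. The mean of Slc25a42, 50.7 normalized counts, was only just above the minimum mean for a call. Slc8b1, the mitochondrial sodium-calcium exchanger, was at 75.6 and 73.9 against 27.7, 38.4 and 70.8 normalized counts, so that number 4 of the p75NTR-/- label lay just under the WT label. Slc41a3, of a magnesium carrier family, was at 122.7 and 82.2 against 65.3, 46.9 and 72.9.

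In the other direction, Slc1a5, which exchanges glutamine and other neutral amino acids (chr7:16781340-16798274, plus strand), was at 45.1 and 114 normalized counts with the WT label and at 153, 177 and 124 with the p75NTR-/- label. Number 1 labelled WT was far below the other four, and number 4 of both labels lay side by side. The difference was 1.05 on the log2 scale (SE 0.43, 95% confidence interval -0.07 to 2.16, limma adjusted p 0.934), and it was 0.38 without the library WT number 1. Slc25a24, a mitochondrial ATP-magnesium/phosphate carrier, was at 29.4 and 56.2 against 84.1, 66.1 and 59.2 normalized counts. Slc38a10 was at 2066 and 2640 against 3070, 2924 and 2702, and the riboflavin carrier Slc52a2 at 168 and 193.5 against 209, 270 and 194.4. Slc12a2, the chloride importer NKCC1, was at 865 and 794 against 1077, 1090 and 904, with a difference of 0.30 (SE 0.18, limma adjusted p 0.934). These labels did not overlap, but for all but Slc12a2 of these 5 genes the gap between the number 4 libraries was smaller than the gap between the 2 libraries labelled WT.

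**Figure D3:**
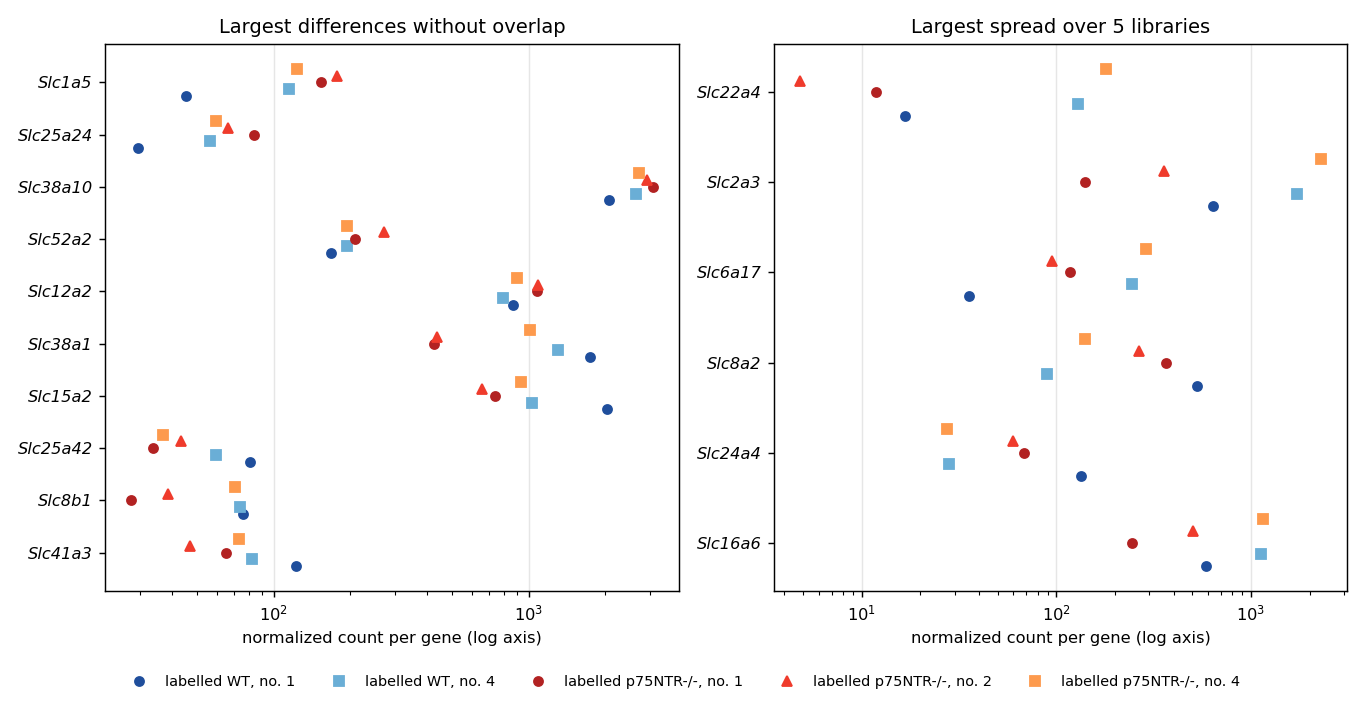
Normalized counts per gene in each library on a log axis, for the 10 genes with the largest label differences without overlap (left) and the 6 with the largest spread (right). For Slc38a1 the libraries labelled p75NTR-/- lie between 424 and 1012 and those labelled WT at 1304 and 1733; in the right panel the 2 squares, number 4 of both labels, lie together and away from the other three points of each gene, except that for Slc8a2 they are further apart.

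Several of the lower genes are known from astroglial cells. Slc4a4 was at 4953 and 3822 normalized counts with the WT label and at 2321, 1926 and 3943 with the p75NTR-/- label, and Slc6a11 at 12234 and 9083 against 5864, 7876 and 9208. Slc6a9, the glycine carrier GlyT1, picked after its values were seen, was at 1787 and 1390 against 638, 902 and 1431. In all 3 genes, numbers 1 and 2 of the p75NTR-/- label were lowest and number 4 lay inside the range of the WT label. The differences were -0.74 (SE 0.36) for Slc4a4, -0.49 (SE 0.27) for Slc6a11 (-0.27 without WT number 1) and -0.75 (SE 0.38) for Slc6a9, and none passed the test. The same pair of libraries was low in Gfap, Aqp4, Aldh1l1 and Gja1, but not in S100b: Gfap was at 241 and 680 normalized counts with the WT label and at 11.9, 1.20 and 746 with the p75NTR-/- label, and Gja1 at 6380 and 4314 against 1734, 1937 and 4471, while S100b was at 1421 and 347 against 475, 369 and 410. All 5 astrocyte markers were lower by sign, 4 of them by at least 1.5-fold, and none was called. The part of the astrocyte markers in the carrier values was not tested.

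The label difference was not alike within the replicate numbers. Number 1 and number 4 occur once under each label, and no source says what libraries of one number share, so these are values with no test, and the split was looked at after the data were seen. Within number 1, 44 of the 176 members differed by at least 1.5-fold between the labels, where 28.9% of all symbols did. Within number 4 it was 4 members (Slc1a1, Slc25a42, Slc2a12 and Slc8a2), where 1.56% of all symbols did. The median absolute difference over the 176 members was 0.10 on the log2 scale between the 2 libraries of number 4 and 0.31 between the 2 of number 1. It was 0.16 between numbers 1 and 2 labelled p75NTR-/- and 0.41 between the 2 libraries labelled WT, the largest of the 10 pairs.

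**Figure D4:**
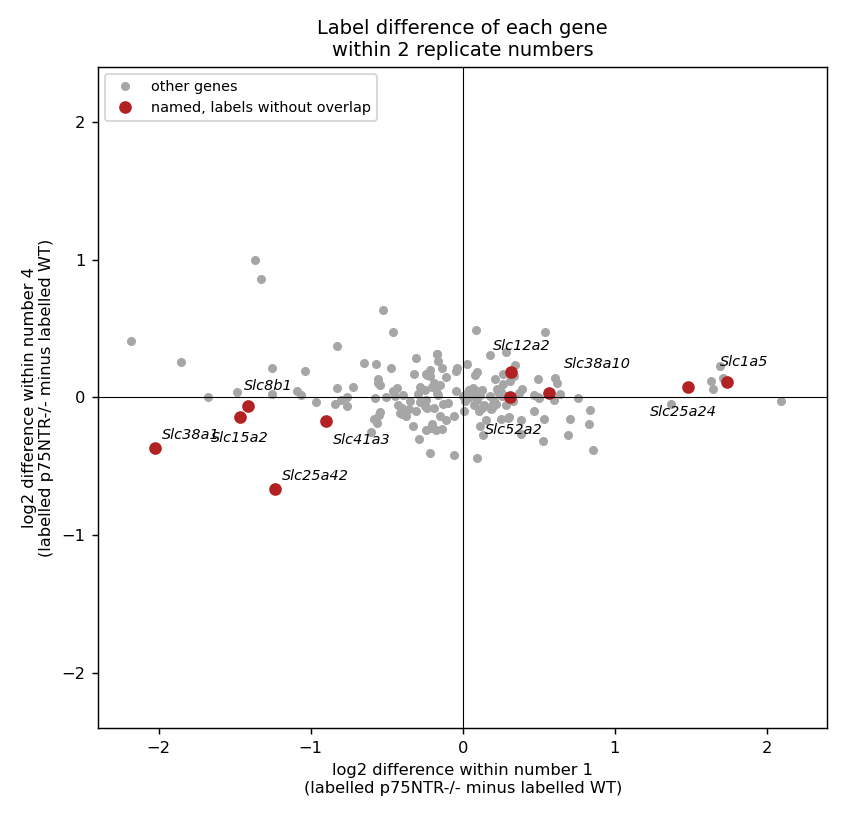
Label difference on the log2 scale of each of the 176 genes within replicate number 1 (horizontal axis) and within number 4 (vertical axis), both axes on the same scale; red points are the 10 named genes whose labels did not overlap. The cloud is wide along number 1, where 44 genes reach a fold of 1.5, and narrow along number 4, where 4 do.

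The 8 members that reached a fold of 1.5 upward had their lowest value in WT number 1, all 8 of them, and 0 of the 8 reached that fold within number 4. Picking genes by an upward fold favours those with a low library labelled WT, so this count is partly fixed by the choice. It shows nothing particular to carriers. The 8 were Slc1a5, Slc7a1, Slc29a2, Slc25a24, Slc25a25, Slc20a1, Slc6a17 and Slc25a37. The arginine and lysine carrier Slc7a1, picked after its values were seen, was at 162 and 719 normalized counts with the WT label and at 695, 571 and 707 with the p75NTR-/- label. The phosphate carrier Slc20a1 was at 345 and 1149 against 1076, 857 and 1251. In both genes WT number 1 was far below the other four libraries. Without WT number 1 the label difference of 5 of the 8 was below 0 (Slc7a1 -0.14, Slc20a1 -0.13, Slc29a2 -0.03, Slc25a37 -0.23 and Slc6a17 -0.73), and that of the other three was from 0.18 to 0.38. Of the 13 members that reached the fold downward, 9 had their highest value in WT number 1, and that choice in turn favours a high library labelled WT. Over the 176, WT number 1 was the lowest library for 51 members (29%), where it was lowest for 33.3% of all symbols. It was the highest for 59 members (33.5%), where it was highest for 28.4% of all symbols.

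Both number 4 libraries lay above the other three for 58 of the 176 members, 33.0%, where 23.0% of all symbols did, and below them for 40, where 22.0% did. Among the higher were 6 of 10 zinc carriers of the Slc39 family, 4 of 6 carriers of the Slc16 family of lactate and related acids, and 3 of 4 hexose carriers of the Slc2 family. Slc16a1, the lactate and pyruvate carrier MCT1, was at 914 and 1778 normalized counts with the WT label and at 940, 998 and 1846 with the p75NTR-/- label. Number 4 of the 2 labels stood together above the rest, and the label difference was -0.09 (95% confidence interval -1.21 to 1.04), from -0.57 to 0.39 with single libraries left out. Slc39a7 was at 2059 and 2694 against 2505, 2435 and 2600. Slc41a2, of a magnesium carrier family and picked after its values were seen, was at 261 and 672 against 303, 287 and 737.

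The spread over the 5 libraries was above 0.5 (SD on the log2 scale) for 34 of the 176 members, beside 15.4% of all symbols. Slc22a4, a carrier of ergothioneine (chr11:53983123-54028090, minus strand), varied most, at 16.7 and 129 normalized counts with the WT label and at 11.9, 4.81 and 179.6 with the p75NTR-/- label. Slc2a3 (chr6:122727809-122801640, minus strand) was at 637 and 1733 against 140, 356 and 2301, a 16.5-fold range. Both genes were high in number 4 of either label, and the labels overlapped throughout. The label difference of Slc2a3 was -2.18 within number 1 and 0.41 within number 4. Slc16a6, another member of the monocarboxylate family, was at 586 and 1131 against 244, 501 and 1153, with the same order of the numbers.

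Slc6a17, a vesicular carrier of neutral amino acids, was at 35.3 and 246 normalized counts with the WT label and at 117, 94.9 and 288 with the p75NTR-/- label. The calcium exchangers ran the other way: the plasma membrane sodium-calcium exchanger Slc8a2 was at 525 and 89.5 against 365, 266 and 139, and the potassium-dependent Slc24a4 at 134 and 28.1 against 68.3, 60.1 and 27.5. In both, WT number 1 was highest and the number 4 libraries lowest. Slc24a2, also potassium-dependent, was at 0 in WT number 1 and in numbers 1 and 2 of the p75NTR-/- label, at 30.2 in WT number 4 and at 1.06 in p75NTR-/- number 4. It was above the floor of 3 counts in 1 library only.

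The 7 symbols set aside showed the same order of libraries in part. Slc2a1, the glucose carrier GLUT1, was at 1213 and 3864 normalized counts with the WT label and at 199.9, 698 and 4733 with the p75NTR-/- label, and the astroglial glutamate carrier Slc1a2 at 2136 and 1805 against 785, 955 and 1763.

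Single transcripts of the members were fitted in the same way over all 22227 transcripts. None of the 353 was called, and 3 of all transcripts were (0.0135%). An unadjusted limma p under 0.05 was found for 15 members' transcripts, beside 3.14% of all transcripts. Most members (133) had 1 listed transcript and 83 had more, up to 7. The lowest adjusted p, 0.0805, belonged to an Slc15a2 transcript of 6 exons, ENSMUST00000168279 (chr16:36771877-36784924, minus strand, GRCm38). It was at 0 in both libraries labelled WT and at 19.8, 31.2 and 46.5 normalized counts in numbers 1, 2 and 4 of the p75NTR-/- label, which were 20, 26 and 44 recovered counts. The labels did not overlap. Against a floor of 3 counts per library the mean was at least 10.7-fold higher with the p75NTR-/- label. The transcript's mean over the 5 libraries, 19.5, was under the minimum of 50. The study lists this transcript among those higher in p75NTR-/- cells, with an adjusted p under 0.05, although its methods ask for a mean of at least 50. By those methods the study tested with DESeq2 and not with limma.

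By the annotation this transcript joins exons that in the 7-exon ENSMUST00000164579 are parted by exon 6, of 91 bases and so not a multiple of 3 (chr16:36772422-36772512). The 2 junctions are shown because reads across them are what can tell these transcripts apart at this place; lower case is the end of the upstream exon, which both share, and capitals are the start of the downstream exon, read 5′ to 3′ on the minus strand of GRCm38.
Skipping junction: tttgaagaggaacatGGGATGTGAAGTGTT
Inclusion junction: tttgaagaggaacatGCAGAGGCACGGACT
The skipped exon begins with the capitals of the inclusion junction. The coding part is annotated with 189 codons in the skipping form, 259 in the 7-exon form and 740 in the full-length ENSMUST00000023616; the stop codon is not counted.

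The other 3 Slc15a2 transcripts had lower means with the p75NTR-/- label, and none was called. ENSMUST00000164579 was at 1184 and 514 normalized counts with the WT label and at 468, 340 and 455 with the p75NTR-/- label. The full-length ENSMUST00000023616 was at 744 and 389 against 223, 266 and 315. ENSMUST00000165531 was at 105.0 and 129 against 24.7, 19.2 and 119, low in p75NTR-/- numbers 1 and 2 and high in the other three libraries. The skipping form made up 2.69%, 4.76% and 4.97% of the gene's normalized counts in numbers 1, 2 and 4 of the p75NTR-/- label. How Salmon split the reads that these 4 transcripts share cannot be seen in the table.

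**Figure D5:**
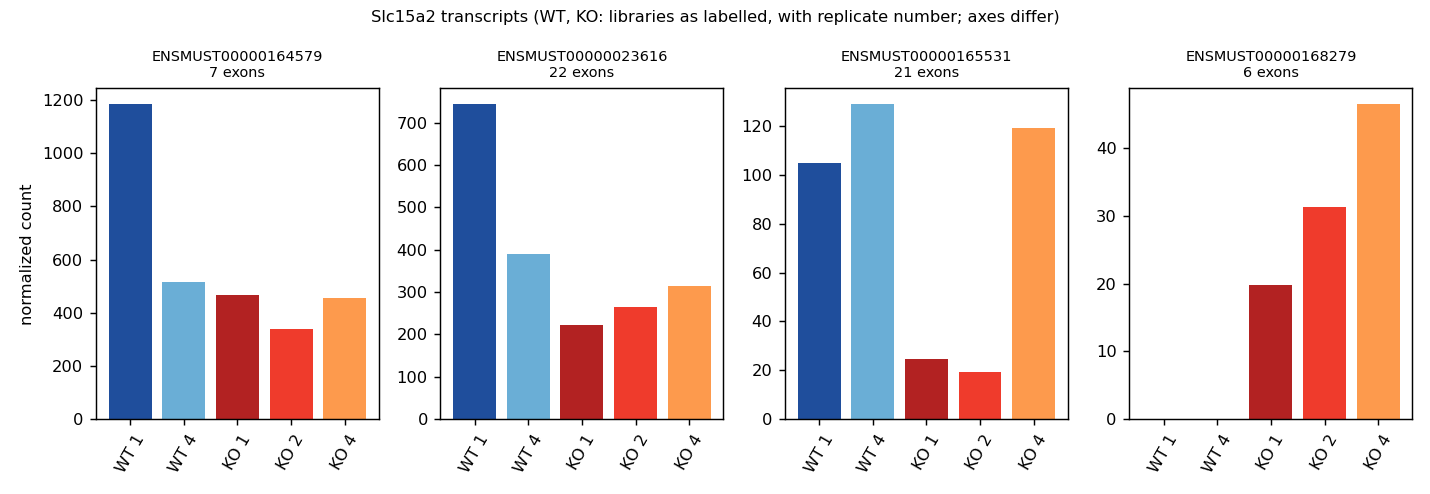
Normalized counts of the 4 listed Slc15a2 transcripts in each library (bars; WT and KO as labelled, with replicate number), one panel per transcript with its own vertical axis starting at 0. The 6-exon transcript is at 0 in both WT libraries and between 19.8 and 46.5 in the KO libraries, while the 7-exon and 22-exon transcripts are highest in WT number 1.

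The shares of counts assigned to the transcripts of Slc16a6 also differed between libraries. How Salmon split the reads that these transcripts share cannot be seen here either, so a change in the RNA itself was not tested. ENSMUST00000070152 held 57.0% and 38.4% of the gene's normalized counts with the WT label and 15.8%, 0% and 75.2% with the p75NTR-/- label, and ENSMUST00000070872 most of the rest. It was at 334 and 435 normalized counts against 38.6, 0 and 866, so that p75NTR-/- numbers 2 and 4 were the extremes. Slc38a1 did not show this, since its 16-exon transcript held between 90.1% and 93.7% of the gene in every library.

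Genes that work with the carriers were read from lists. Of 10 Na,K-ATPase subunits, whose sodium gradient drives many carriers, 8 were listed and none was called, with the highest TPM for Atp1b2, at 207. Of 42 carriers that go by other symbols, 30 were listed and none was called, 2 had an unadjusted p under 0.05, both higher with the p75NTR-/- label, and the pyruvate carrier subunit Mpc1 was highest, at 504 TPM. The 3 partner proteins Bsg, Emb and Nptn were listed and none was called. Bsg, which brings lactate carriers to the membrane, was highest among them, at 417 TPM, and was at 5961 and 7495 normalized counts with the WT label and at 4436, 4601 and 7839 with the p75NTR-/- label.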

How the data were processed

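The authors quantified stranded poly(A) RNA-Seq reads with Salmon 0.10.2 on the mm10 (GRCm38.p6) Ensembl transcriptome and normalized them with DESeq2 1.22.0 in R 3.6.1. The deposited signal per library is a normalized count plus 0.5, and in every library 100% of the values minus 0.5 lay within 0.1 of a whole multiple of one step, from which counts were recovered. The authors' TPM columns were deposited beside it and treated as a score, since repeated lines take their sums above what TPM allows. The deposited baseMean score, log2 fold change, p-value and adjusted p-value are the authors' own results and were not used. No column of per-sample values was left unused.

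Of 22530 lines, 303 repeats were dropped, and values minus 0.5 were summed per symbol. Members, classes and lists were chosen with earlier results of these data known, and Slc4a1ap was put among the 4 symbols that are not carriers after the files were read. Label differences were fitted with limma 3.58.1 (R 4.3.3) on log2(value + 1), 2 against 3 libraries, two-sided, Benjamini-Hochberg over all features, after the script was tested on simulated data. A fold change on this scale understates the change of low genes. Calls used the study's criteria (mean of at least 50, 1.5-fold, adjusted p under 0.05). Named were called genes, the 5 largest differences each way without overlap, the 12 highest TPM (1 gene is not reported here), class leaders, the 6 largest spreads, Slc24a2 and Slc15a2, the symbols set aside, and Ngfr; any other is marked as picked after its values were seen or given only as an example of a count. Coordinates and junctions come from GENCODE on GRCm38, where 216 of 216 members and 353 of 353 transcripts matched. Alternatives were other pseudocounts, filters, scalings, a replicate block and leaving out each library. Tables were made with Python 3.11.15 and pandas 2.3.3. Precision is limited by 5 libraries, and counting floors cover counting error only.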

Additional observations from a re-analysis of the deposited data

How the results depend on the processing

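There were 14 alternatives for gene sums and 8 for transcripts that were run. No member was called under any of them that kept at least 2 libraries per label. With all 5 libraries, members with an unadjusted limma p under 0.05, 7 as reported, numbered from 4 (TPM sums, intensity trend) to 7. For transcripts it was 7 (block) to 15. Shares over all symbols were not made for these alternatives. Among fits with at least 2 libraries per label, the lowest limma adjusted p of a member gene was 0.36. That of a member transcript was 0.065, and both came without p75NTR-/- replicate 4. Numbers 1 and 4 occur under both labels, but no source says that a number marks a shared litter or day. Deviations from the label means correlated at 0.26 for number 1 and 0.48 for number 4 across 10786 symbols, which are not independent replicates. The 2 libraries labelled WT deviate from their mean by equal and opposite amounts, so these 2 correlations are tied to each other. With the replicate number as a block, 0 members were called and the median was -0.000814 on the log2 scale. Number 2 occurs under 1 label only, so the block gives the same differences as leaving out p75NTR-/- replicate 2. These 2 settings are not separate checks of the differences. Leaving out each library in turn gave medians from -0.06 to -0.000814. The adjusted p of the Slc15a2 skipping transcript was 0.66 with the block, 0.49 with an intensity trend and 0.10 to 0.27 without single libraries. Leaving out single libraries changed the sign of 102 of the 176 members with a mean of at least 50. Of the 29 genes followed through every alternative, 10 changed sign, none of them called. Slc16a1 came to 0.047 with the block, and from -0.57 to 0.39 without single libraries. Slc22a4 came to 0.0081 with the block, and from -2.47 to 0.43 without single libraries (above 0 without WT replicate 4 or p75NTR-/- replicate 2). Without WT replicate 1 and without WT replicate 4, the extremes, Slc20a1 was -0.13 and 1.599, Slc25a37 -0.23 and 1.52, Slc29a2 -0.035 and 1.79, and Slc7a1 -0.14 and 2.01. Without single libraries Slc6a17 ran from -0.73 (without WT replicate 1) to 2.03, Slc8a2 from -1.14 (without WT replicate 4, and -0.17 without p75NTR-/- replicate 1) to 1.40, Slc24a4 from -1.46 to 0.76 (without WT replicate 1, and 0.05 without p75NTR-/- replicate 4) and Slc24a2 from -4.61 to 0.35 (without WT replicate 4); the cause was not tested. The intensity trend and the upper quartile scaling were chosen after seeing the data. The planned count tests and TMM scaling were not run: the columns hold an offset of 0.5 and did not all meet the rule applied here for treating recovered values as read counts, so no count test stands beside limma. Members near the floor of 3 counts are limited by depth.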
